A study of Mus musculus with 18 samples.

Results

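Mbp, Mobp, Mog, Mag, Cnp, Cldn11, Ugt8a, Mal and Olig1 are expressed by oligodendrocytes, the cells that wrap axons of the brain in myelin, and were followed here in the brains of mouse pups at postnatal day 8. They were chosen by symbol, with earlier results of these data known. Every probe set annotated to 1 of these symbols alone was taken, which gave 24 of the 45101 probe sets on the array and 9 of its 18194 annotated genes. Each gene is represented by its brightest probe set (highest mean RMA value over the arrays), and the other 15 probe sets serve as a check. Of the 9 genes, 8 were among the upper 60% by brightness (10916 genes) and were tested, while Mog was too dim and is given by its values.

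The pups were homozygous for a metallothionein knockout (-/-, Mt-KO), heterozygous (+/-) or wild-type (+/+, C57BL/6J), all from a brother-sister cross that followed at least 7 generations of backcrossing to C57BL/6J. Pups of each genotype received lead acetate at 50 mg/kg or saline, 2 times a day at an interval of 4 h on postnatal days 7 and 8, and 6 h later whole brains of both sexes were collected. For each genotype and treatment the RNA of 5 pups was combined and hybridised to 1 array, so the groups are Mt-KO lead, Mt-KO saline, heterozygous lead, heterozygous saline, wild-type lead and wild-type saline with 1 pool each, and no combination was replicated. The design asks how lead changes expression while synapses form and whether metallothioneins, small cysteine-rich proteins that bind metal ions, alter that. The labels do not say which metallothionein genes were disrupted or in which exons.

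Oligodendrocytes arise from dividing precursors, leave the cell cycle and then switch on the genes of the myelin sheath. In the mouse brain the process starts in the brainstem around birth and moves forward during the weeks that follow, so at postnatal day 8 myelin transcripts are climbing steeply. In pooled whole-brain RNA, fewer oligodendrocytes and less RNA per oligodendrocyte cannot be told apart.

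The 6 arrays were similar but not equal. The median RMA value (log2 scale) of the 10916 genes tested lay between 10.87 and 11.05, and the median difference of lead minus saline over these genes was 0.09 for Mt-KO, 0.13 for heterozygous and -0.18 for wild-type pools. Differences within a genotype are therefore also given after subtracting this median (relative to the median gene). Mt1 followed the labels, at 11.71 and 11.68 in Mt-KO lead and saline, 12.87 and 12.45 in heterozygous lead and saline, and 13.30 and 13.17 in wild-type lead and saline. The excess of the Gapdh 3' over its 5' control probes was 1.19 in wild-type saline and 0.54 to 0.82 in the other 5 pools. Gh, a pituitary hormone gene, measured 11.48 in heterozygous lead and 9.29 to 9.83 in the other pools.

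By the mean of the 2 pools of a genotype, Mt-KO brains were lowest for 8 of the 9 genes, all but Mag, and heterozygous brains were highest for 9 of 9. The share of all genes with this order of means was not computed. Among the 8 members tested, 7 (all but Olig1) had both Mt-KO pools below both heterozygous pools as deposited, against a background of 15.1% of all genes tested. Relative to the median gene of each array, 8 of 8 did, against 23.7% of all genes. Both counts include Mal, whose brightest probe set spanned 0.24 over the 6 pools. At the level of probe sets, which share a transcript within a gene, 20 of the 24 had both Mt-KO pools below both heterozygous pools, against 20.1% of the 34958 probe sets with 1 symbol. By GC-RMA, a summary that models non-specific binding, some of the 20 lay near the low end of the scale. They were the brightest of Mal (1.18 to 1.23), the sixth by brightness of Mbp (1.09 to 2.20) and the dimmest of Mobp (1.95 to 2.25) and Ugt8a (2.24 to 2.59). The comparison of Mt-KO with heterozygous brains was added after the values of the members had been seen, so these counts describe the 6 arrays.

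**Figure D1:**
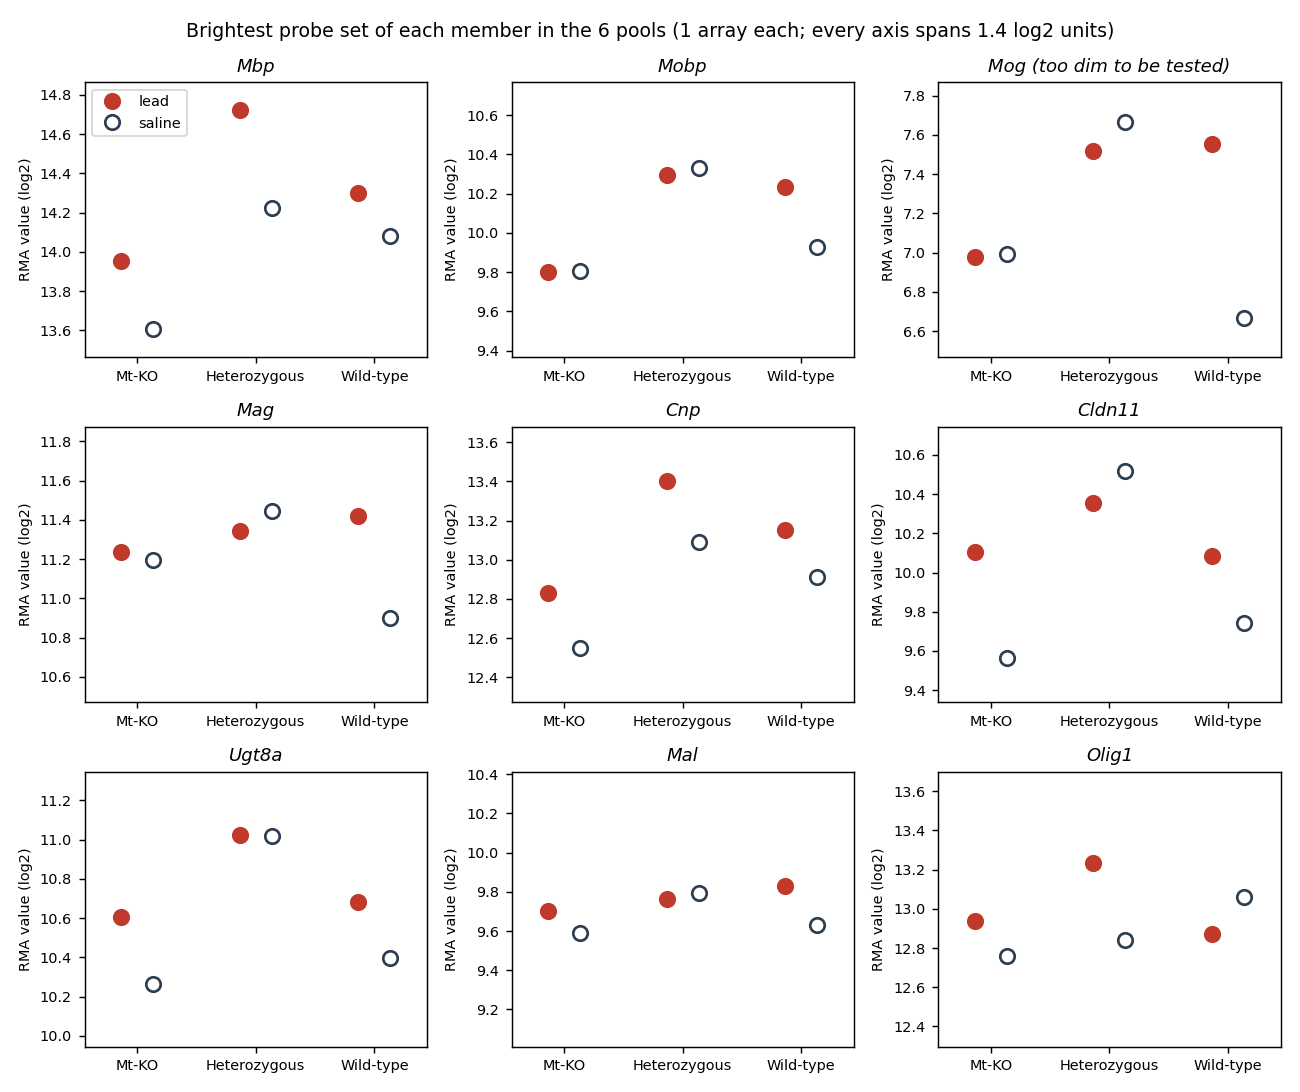
RMA values (log2, vertical axis) of the brightest probe set of each of the 9 members in Mt-KO, heterozygous and wild-type brains (horizontal axis), with lead pools filled and saline pools open, 1 array per point. Both Mt-KO points lie below both heterozygous points in every panel except that of Olig1, and the wild-type saline point lies below the wild-type lead point in every panel except that of Olig1.

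Mbp encodes myelin basic protein, which holds the inner faces of the myelin membrane together. Its brightest probe set measured 13.95 in Mt-KO lead, 13.61 in Mt-KO saline, 14.72 in heterozygous lead, 14.22 in heterozygous saline, 14.30 in wild-type lead and 14.08 in wild-type saline. Both Mt-KO pools were lower than all other 4 pools, and heterozygous lead was the highest. Mt-KO minus heterozygous was -0.69 on the log2 scale (SE 0.37, limma adjusted p = 1), with a 95% interval from -1.42 to 0.03. The interval is the widest among the members. In this fit the SE followed brightness over all genes tested and took nothing from the scatter of the gene's own pools. By that SE a difference of this size could not be told from 0.

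Mbp had 8 probe sets, and they fell into unlike patterns. The 4 next in brightness repeated the order of the genotype means, with heterozygous highest and Mt-KO lowest. For the fourth by brightness the values were 12.12 and 11.74 in Mt-KO lead and saline, 13.03 and 12.83 in heterozygous lead and saline, and 12.48 and 12.05 in wild-type lead and saline. Both heterozygous pools were thus above both wild-type pools, and the mean difference was 0.66, against 0.28 for the brightest probe set. The seventh stayed between 10.69 and 10.90 in all 6 pools, and between 10.17 and 10.44 with GC-RMA. The sixth measured 9.97 in wild-type saline and 11.00 to 11.27 in the other 5 pools. With GC-RMA it lay at 1.09 in wild-type saline and at 1.88 to 2.20 elsewhere. The dimmest measured 10.34 and 9.80 in Mt-KO lead and saline, 10.17 and 9.86 in heterozygous lead and saline, and 9.80 and 9.64 in wild-type lead and saline. There Mt-KO lead was the highest pool. Mt-KO minus heterozygous was 0.05 and Mt-KO minus wild-type 0.35, unlike the brightest probe set. With GC-RMA the dimmest lay at 1.78 to 2.27.

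Mobp encodes a small basic protein of compact myelin, present in the central nervous system. Its brightest probe set measured 9.80 and 9.81 in Mt-KO lead and saline, 10.30 and 10.33 in heterozygous lead and saline, and 10.23 and 9.93 in wild-type lead and saline. Lead and saline pools of the same genotype were nearly equal in Mt-KO and heterozygous brains, while the genotypes did not overlap as deposited. Relative to the median gene the wild-type pools overlapped with those of both other genotypes. With GC-RMA wild-type lead (7.28) was above heterozygous lead (7.19). Mt-KO minus heterozygous was -0.51 (SE 0.15, limma adjusted p = 0.241). Mt-KO minus wild-type was -0.28 (SE 0.15, limma adjusted p = 1). The fourth Mobp probe set by brightness spread more widely, with 8.69 and 8.30 in Mt-KO lead and saline, 9.41 and 9.35 in heterozygous lead and saline, and 8.97 and 8.07 in wild-type lead and saline. There wild-type saline, not Mt-KO, was the lowest pool. The third hardly varied (8.75 to 8.90) and lay between 1.75 and 1.89 with GC-RMA.

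Cldn11 encodes claudin-11, which forms the tight junctions between the layers of central myelin. It had a single probe set, with 10.10 and 9.56 in Mt-KO lead and saline, 10.36 and 10.52 in heterozygous lead and saline, and 10.08 and 9.74 in wild-type lead and saline. The heterozygous pools stood above the other 4, and Mt-KO and wild-type overlapped. Lead minus saline was 0.54 in Mt-KO, -0.16 in heterozygous and 0.34 in wild-type pools. Mt-KO minus heterozygous was -0.60, which is 1.52-fold lower in Mt-KO (SE 0.15, limma adjusted p = 0.0240). As for Mbp, this SE followed brightness and took nothing from the gene's own scatter. Cldn11 was the only 1 of the 8 members to pass in this comparison, in which 17 genes or 0.156% of all tested passed, and its adjusted p was at or above 0.05 under each of the 7 other settings and without each of the 4 Mt-KO and heterozygous arrays. Heterozygous minus wild-type was 0.52 (SE 0.15), the largest of the members, with a limma adjusted p of 0.210. It was 0.60 without wild-type lead and 0.45 without wild-type saline, and ranged from 0.22 to 0.83 when 1 heterozygous or wild-type array was left out.

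Ugt8a encodes the galactosyltransferase that makes galactocerebroside, the main glycolipid of myelin. Its brightest probe set measured 10.61 and 10.27 in Mt-KO lead and saline, 11.02 and 11.02 in heterozygous lead and saline, and 10.68 and 10.40 in wild-type lead and saline. As for Cldn11, the heterozygous pools lay above the rest and Mt-KO overlapped with wild-type. Heterozygous minus wild-type was 0.48 (SE 0.16, limma adjusted p = 0.795) and ranged from 0.32 to 0.63 when 1 heterozygous or wild-type array was left out. Mt-KO minus heterozygous was -0.58 (SE 0.16, limma adjusted p = 0.122). The other Ugt8a probe set ranged only from 8.22 to 8.59 and lay at 2.24 to 2.59 with GC-RMA.

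Cnp encodes the cyclic nucleotide phosphodiesterase of non-compact myelin and is switched on early in the lineage. It measured 12.83 and 12.55 in Mt-KO lead and saline, 13.40 and 13.09 in heterozygous lead and saline, and 13.15 and 12.91 in wild-type lead and saline. Within each treatment the order was the same, with heterozygous first and Mt-KO last. Mt-KO minus heterozygous was -0.56 (SE 0.25, limma adjusted p = 1). The dimmest of its 3 probe sets differed less by genotype, with 11.00 and 10.92 in Mt-KO lead and saline, 11.07 and 11.06 in heterozygous lead and saline, and 11.04 and 10.55 in wild-type lead and saline, so that wild-type saline alone stood low.

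Mag encodes a cell adhesion protein on the membrane that faces the axon, and Mog an antigen on the outer surface of the sheath that appears late in myelination. Mag measured 11.24 and 11.20 in Mt-KO lead and saline, 11.35 and 11.44 in heterozygous lead and saline, and 11.42 and 10.90 in wild-type lead and saline. Mog measured 6.98 and 7.00 in Mt-KO lead and saline, 7.52 and 7.67 in heterozygous lead and saline, and 7.56 and 6.67 in wild-type lead and saline. Both genes were lowest in wild-type saline, and for both the 2 Mt-KO pools were nearly equal. Mt-KO minus heterozygous was -0.18 for Mag (SE 0.17, limma adjusted p = 1). In a fit of all 18194 genes, in which Mog could enter, it was -0.61 for Mog (SE 0.18) and did not pass (limma unadjusted p = 0.00576).

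Mal encodes a membrane protein of lipid rafts that takes part in sorting to myelin. Its brightest probe set varied little, from 9.59 to 9.83, and lay at 1.18 to 1.23 with GC-RMA. The dimmer probe set ranged from 4.57 to 6.87 with GC-RMA and varied more by RMA. It measured 8.03 and 7.54 in Mt-KO lead and saline, 8.63 and 8.48 in heterozygous lead and saline, and 7.97 and 7.81 in wild-type lead and saline. Both heterozygous pools were above the other 4. Heterozygous minus wild-type was 0.66 for this probe set and 0.05 for the brightest. In a fit of the 34958 probe sets it did not pass (limma adjusted p = 1).

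Olig1 encodes a basic helix-loop-helix transcription factor present from the precursor stage onward. It measured 12.94 and 12.76 in Mt-KO lead and saline, 13.23 and 12.84 in heterozygous lead and saline, and 12.87 and 13.06 in wild-type lead and saline. The genotypes overlapped, and Olig1 was the only member whose wild-type saline pool was above its wild-type lead pool. Mt-KO minus heterozygous was -0.19 (SE 0.25, limma adjusted p = 1).

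**Figure D2:**
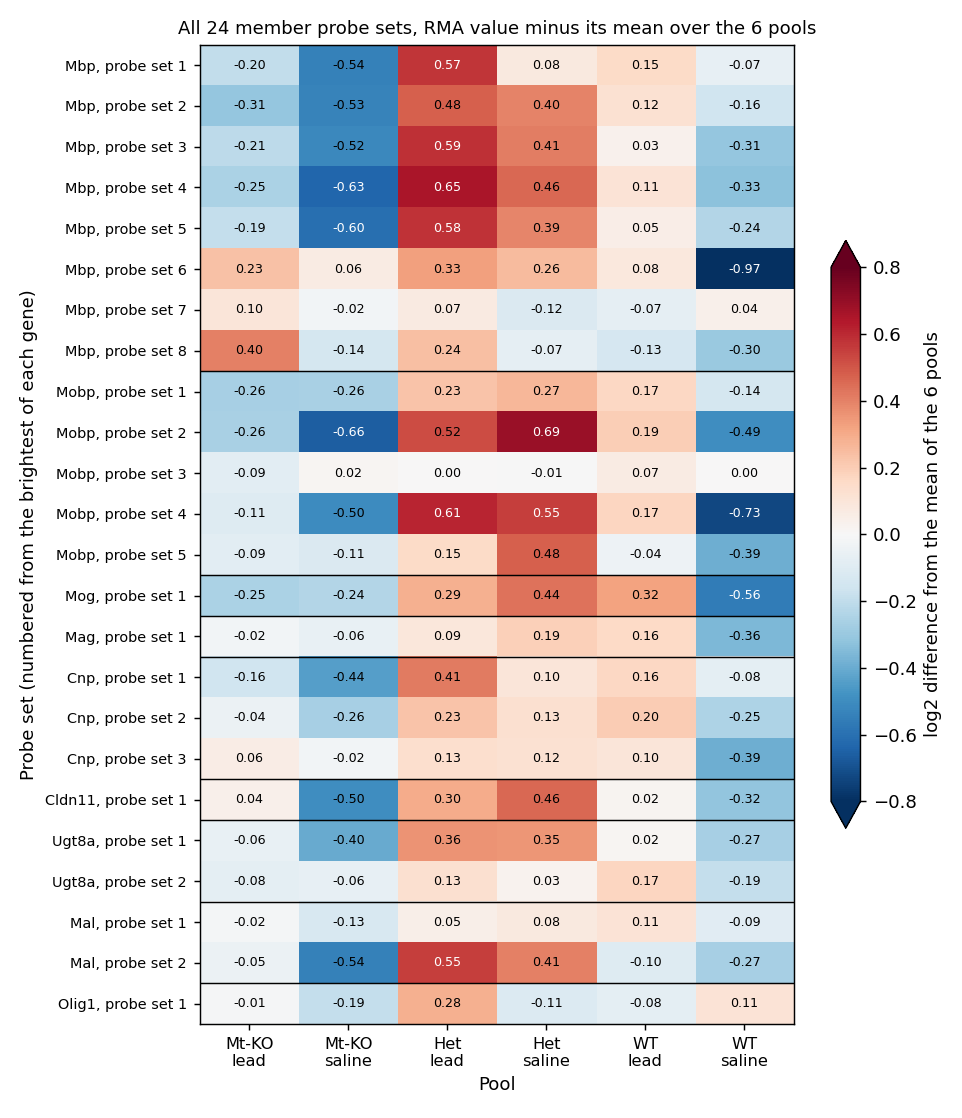
Difference of each RMA value from the mean of that probe set over the 6 pools (log2, colour scale and printed numbers) for the 24 probe sets of the members (rows, numbered from the brightest of each gene) in the 6 pools (columns). The heterozygous columns are mostly above 0 and the Mt-KO saline column mostly below 0, and wild-type saline is the lowest column in 8 rows (Mog, Mag, the dimmest probe sets of Cnp and Ugt8a, 2 probe sets of Mobp and 2 of Mbp).

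The mean of the Mt-KO pools was below that of the heterozygous pools for 9 of 9 members with RMA and 9 of 9 with PLIER, which with GC-RMA are 3 summaries of the same 6 arrays. With GC-RMA it was lower for the 8 members other than Mal, whose brightest probe set lay at 1.18 to 1.23 with a difference of -0.00264, too small and too near the low end of the scale to be read as a direction. The same Mal probe set is counted in the 9 of 9 with RMA (-0.13) and PLIER (-0.11), so the limit holds for those counts too. Heterozygous was above wild-type for 9 of 9 with RMA, 8 with GC-RMA and 7 with PLIER, the exceptions being Mal with GC-RMA and Mal and Olig1 with PLIER. Mt-KO was below wild-type for 8, 7 and 7 of 9, again counting Mal. No share over all genes was computed for these counts of means. Sizes differed, and GC-RMA gave larger differences between Mt-KO and heterozygous for Mobp (-1.44), Mag (-1.05), Ugt8a (-0.96) and Cldn11 (-0.91). None of these passed with GC-RMA.

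The planned genotype comparisons gave no call among the members. In Mt-KO against wild-type brains 0 of 8 passed in limma, against 47 of 10916 genes (0.431%), and 0 of 8 had an unadjusted p under 0.05, against 382 genes (3.50%). Without wild-type lead, Mag (0.33), Cnp (-0.37) and Olig1 (-0.35) passed in a fit that called 4380 genes, and without wild-type saline Mobp (-0.44) passed in a fit that called 2429. Both Mt-KO pools were below both wild-type pools for Cnp, Mbp and Mobp, 3 of 8, against 17.6% of all genes. Relative to the median gene they were for Cnp, Mbp and Olig1, again 3 of 8, against 27.3%. The median coefficient of the 8 was -0.11, beside -0.03 over all genes tested, -0.38 over the 11 neuron markers (0 above 0) and -0.20 over the 12 astrocyte markers (2 above 0). In heterozygous against wild-type brains 0 of 8 passed, against 13 genes (0.119%), and Cldn11 and Ugt8a had an unadjusted p under 0.05, against 131 genes (1.20%). Both heterozygous pools were above both wild-type pools for Cldn11, Mobp and Ugt8a, 3 of 8, against 6.83% of all genes, and for 14 of the 24 probe sets, against 11% of all probe sets. The 14 include the sixth and the dimmest of Mbp and the dimmest of Mobp, which lay near the low end of the GC-RMA scale. Relative to the median gene they were for Cldn11 and Ugt8a, 2 of 8, against 8.92% of all genes. Without wild-type lead the coefficient was 0.51 for Mag and 0.40 for Mobp. All 8 coefficients were above 0 and their median was 0.24, beside 0.00 over all genes. For Mt-KO against heterozygous brains the median was -0.53, beside -0.03 over all genes, and Cldn11, Cnp, Mobp and Ugt8a had an unadjusted p under 0.05, against 144 genes (1.32%). The 3 comparisons share arrays in pairs, so they are not independent of each other.

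**Figure D3:**
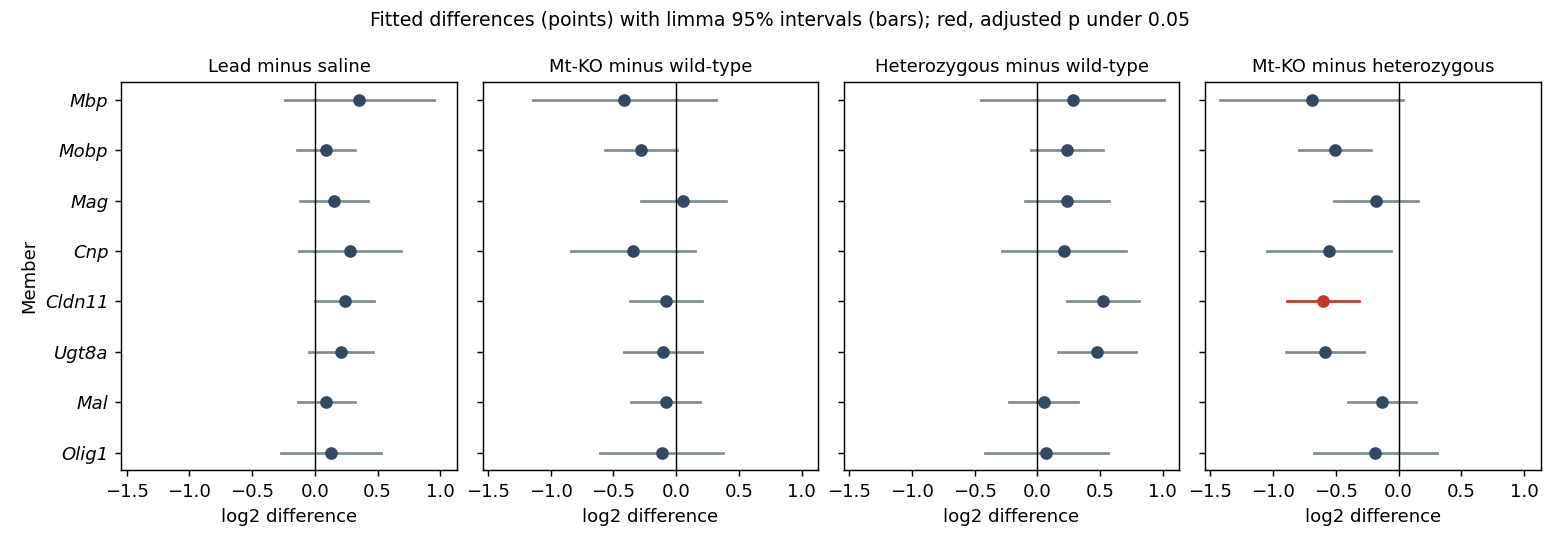
Fitted log2 differences (points, horizontal axis) with limma 95% intervals (bars) for the 8 tested members in 4 comparisons, lead minus saline, Mt-KO minus wild-type, heterozygous minus wild-type and Mt-KO minus heterozygous. The red point, Cldn11 in Mt-KO minus heterozygous at -0.60, is the only 1 with an adjusted p under 0.05, and the Mbp intervals are the widest.

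No member passed the threshold for lead. In the lead comparison, with genotype as a block, 0 of 8 members passed in limma, against 13 of 10916 genes (0.119%), and the adjusted p was 1 for each. Cldn11 alone had an unadjusted p under 0.05 (0.0453), against 167 genes (1.53%). All 8 coefficients were above 0, from 0.09 for Mobp to 0.36 for Mbp, with a median of 0.18 beside 0.02 over all genes. Other lists had coefficients of like or larger size. The median for lead was 0.20 for the astrocyte markers (12 of 12 above 0), 0.22 for the microglia markers (6 of 7 above 0) and 0.44 for the cerebellum markers (11 of 11 above 0). Of the cerebellum markers, En2 (0.55, limma adjusted p = 0.00268) and Pax6 (0.54, limma adjusted p = 0.00363) were called, though under 0 of the 7 other settings. The 95% interval was -0.24 to 0.95 for Mbp, 0.01 to 0.47 for Cldn11, -0.04 to 0.47 for Ugt8a and -0.15 to 0.32 for Mobp. Without the wild-type pair, in a fit that called 2632 genes, Cnp (0.30, limma adjusted p = 0.0250) and Olig1 (0.29, limma adjusted p = 0.0329) passed.

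The 3 pairs did not contribute alike to these coefficients. In the wild-type pair 7 of 8 members, all but Olig1, were higher with lead as deposited, against 21.2% of all genes, and so were 22 of the 24 probe sets, against 40.4% of all probe sets. The 22 also include probe sets near the low end of the GC-RMA scale. Relative to the median gene it was again 7 of 8, against 49.8%, with a median of 0.44 over the 8. In the heterozygous pair 3 of 8 were higher relative to the median gene, against 54.7%, with a median of -0.15. In the Mt-KO pair 6 of 8 were higher, against 50.6%, with a median of 0.14. Mbp and Cnp were the 2 members that, relative to the median gene, were higher with lead in each of the 3 genotypes, as were 12.7% of all genes.

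Single members show how the pairs differed. Relative to the median gene, lead minus saline for Mag was -0.05 in Mt-KO, -0.23 in heterozygous and 0.70 in wild-type pools. For Mog, which was not tested, it was -0.11, -0.28 and 1.07 in the same order of genotypes. Cldn11 had 0.45 in Mt-KO, -0.30 in heterozygous and 0.52 in wild-type pools, and Mbp had 0.25, 0.37 and 0.40. The sign thus differed between genotypes for Mag, Mog and Cldn11 and not for Mbp. The wild-type pair includes the saline array with the largest Gapdh 3' excess (1.19) and the lowest median of the cerebellum markers (-0.42), and the part of either in the result was not tested.

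The test of whether the lead effect depends on the number of intact metallothionein alleles gave no call either. With allele number as a linear term 0 of 8 members passed in limma, while 412 of 10916 genes did (3.77%), of which 365 were lower, in a fit where the median coefficient of all genes was itself -0.15. Mag came closest, with 0.24 per allele (SE 0.12, unadjusted p = 0.0489, limma adjusted p = 0.247), and 20.1% of all genes had an unadjusted p under 0.05. The Cldn11 coefficient was 0.77 without Mt-KO saline and -0.97 without wild-type saline, and that of Mobp was 0.62 without Mt-KO saline. The median over the 8 members was -0.03.

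The list of other myelin and mature oligodendrocyte genes had 12 of 22 measured genes tested, with 0 calls in the lead comparison and 0 in each genotype comparison. Its median was 0.04 for lead, 0.11 for heterozygous against wild-type, 0.03 for Mt-KO against wild-type and -0.05 for Mt-KO against heterozygous. Myrf, the transcription factor that switches on the myelin genes, measured 10.27 and 10.22 in Mt-KO lead and saline, 10.36 and 10.33 in heterozygous lead and saline, and 10.33 and 10.37 in wild-type lead and saline, a span of 0.14. Myrf, and Fa2h and Gal3st1 below, were picked after their values were seen. Tspan2, a tetraspanin of oligodendrocytes, had the largest coefficient of the list in heterozygous against wild-type brains (0.24, SE 0.17) and did not pass.

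Genes of earlier stages gave 1 call in all. Newly formed oligodendrocyte genes (9 tested) had a median of 0.07 for lead, -0.12 for Mt-KO against wild-type, 0.10 for heterozygous against wild-type and -0.16 for Mt-KO against heterozygous, with 0 calls in each of the 4 comparisons. Gpr17, a receptor of cells about to differentiate, measured 11.53 and 11.53 in Mt-KO lead and saline, 11.91 and 11.88 in heterozygous lead and saline, and 11.42 and 11.92 in wild-type lead and saline. Precursor genes (10 tested) had medians of 0.02, -0.13, 0.00 and -0.12 in the same 4 comparisons and again 0 calls. Pdgfra, the growth factor receptor of precursors, lay between 12.34 and 12.71, and Sox10, a transcription factor of the whole lineage, between 11.58 and 11.89. Olig2, the partner of Olig1, measured 11.09 and 10.63 in Mt-KO lead and saline, 10.89 and 11.17 in heterozygous lead and saline, and 10.79 and 11.27 in wild-type lead and saline. Its lead effect fell with the number of intact alleles (-0.48 per allele, SE 0.12, limma adjusted p = 0.00567), the 1 call among the 10 precursor genes in a comparison that called 3.77% of all genes, most of them lower, with an all-gene median of -0.15. It passed under 3 of the 7 other settings, with an adjusted p of 0.37 with GC-RMA and 0.25 after quantile normalization, and without 2 of the 6 arrays.

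Among 13 enzymes of galactolipids and other myelin lipids, 1 was called. Galc, the lysosomal enzyme that degrades galactocerebroside, was lower in heterozygous than in wild-type brains (-0.62, SE 0.15, limma adjusted p = 0.0199), 1 of the 13 genes (0.119%) called in that comparison. The call was lost under each of the 7 other settings and without heterozygous saline (-0.0154) or wild-type saline (-0.17). It measured 9.99 and 9.92 in Mt-KO lead and saline, 10.38 and 9.28 in heterozygous lead and saline, and 10.29 and 10.61 in wild-type lead and saline, so the low heterozygous level is that of the saline pool. Fa2h, which adds the hydroxyl group to these lipids, and Gal3st1, which makes sulfatide, had 0.13 (SE 0.15) and 0.15 (SE 0.14) in heterozygous against wild-type brains and did not pass. Cholesterol synthesis genes (15 tested) had a median of 0.07 in heterozygous against wild-type brains, with 0 calls in each comparison.

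Markers of other cell types were compared in the same fits. For Mt-KO against heterozygous brains the median was -0.24 for the 11 neuron markers, of which 11 were below 0, and -0.22 for the 12 astrocyte markers, of which 11 were below 0. The median was -0.07 for the 7 microglia markers, 0.00 for the 6 endothelial markers and -0.01 for the 11 cerebellum markers. Centred on each gene and taken relative to the median gene of the array, the neuron markers had medians of -0.17 and -0.23 in Mt-KO lead and saline, 0.14 and -0.03 in heterozygous lead and saline, and 0.11 and 0.25 in wild-type lead and saline. The tested members had -0.08 and -0.28, 0.21 and 0.20, and 0.23 and -0.20 in the same order. The 2 lists thus parted in wild-type saline, where the neuron markers were highest and the members low. No marker of these 5 lists passed in Mt-KO against heterozygous brains, and their part in the difference between the genotypes was not tested.

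Region markers were compared because myelination runs from the brainstem forward. Of 13 Hox genes of hindbrain and spinal cord measured, 4 were bright enough to be tested, with medians of -0.14 and 0.05 in Mt-KO lead and saline, -0.04 and 0.17 in heterozygous lead and saline, and 0.16 and -0.19 in wild-type lead and saline. The cerebellum markers had 0.24 and -0.07, 0.19 and -0.09, and 0.27 and -0.42 in the same order. In the wild-type pair all 3 lists, members, Hox genes and cerebellum markers, were thus lower with saline. So were the astrocyte markers (0.16 with lead, -0.06 with saline), microglia markers (0.16, -0.12) and other myelin genes (0.05, -0.07). The neuron, endothelial and cholesterol synthesis lists were higher with saline. In the heterozygous pair the cerebellum markers stood at 0.19 with lead and -0.09 with saline and the members at 0.21 and 0.20. Of the 4, Hoxa5 was the only 1 called. It measured 10.74 and 11.49 in Mt-KO lead and saline, 10.28 and 11.20 in heterozygous lead and saline, and 10.39 and 10.49 in wild-type lead and saline, so that Mt-KO was above heterozygous, unlike the members. It was lower with lead (-0.60, SE 0.13, limma adjusted p = 0.00561, passing under 0 of the 7 other settings) and higher in Mt-KO than in wild-type brains (0.67, SE 0.16, limma adjusted p = 0.00890, passing under 1 of the 7). Mt-KO minus heterozygous was 0.37 for Hoxa5, -0.30 for Hoxc5, -0.10 for Hoxb3 and -0.06 for Hoxa3, and none passed. The median of the 4 Hox genes was -0.08, with 1 of 4 above 0, so Hoxa5 alone ran opposite to the members. Hoxc5 measured 9.59 and 9.74 in Mt-KO lead and saline, 9.89 and 10.03 in heterozygous lead and saline, and 10.13 and 9.66 in wild-type lead and saline. The part of dissection or region in the members' values was not tested. Markers of Schwann cells, which make the myelin of peripheral nerves, were dim, and of 5 measured 0 reached the brightness needed for a test.

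**Figure D4:**
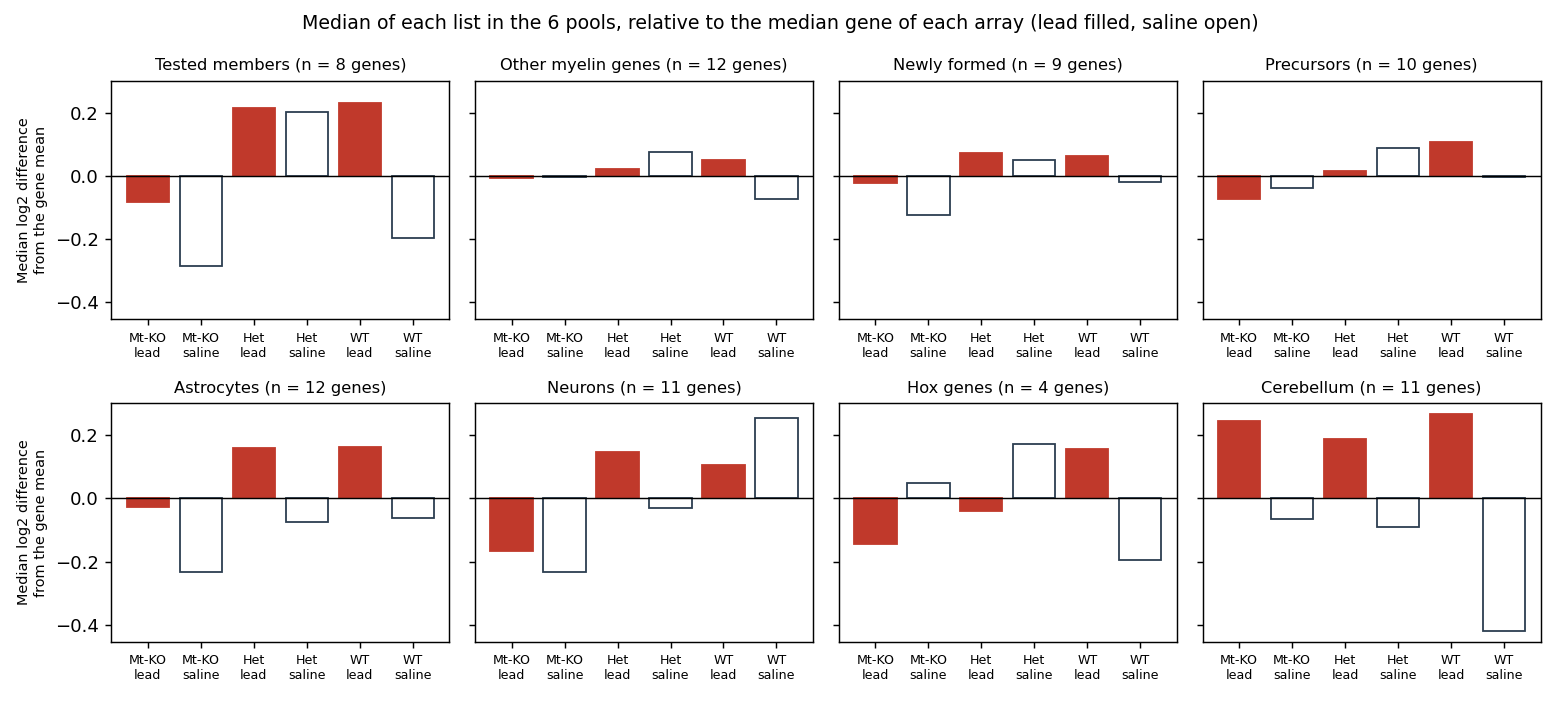
Median over the genes of 8 lists (panels) of the log2 difference from the mean of each gene, after subtracting the median gene of each array (vertical axis), in the 6 pools (horizontal axis, lead filled and saline open). The tested members are above 0 in both heterozygous pools and in wild-type lead and reach -0.28 in Mt-KO saline, while the other myelin genes stay within 0.08 of 0.

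The genes outside the members whose profile over the 6 pools came closest to the mean profile of the 9 members were Trub2, Gabpb2, Chrna4, Nefh, Vamp1, Uba6, Mtarc1 and Gcgr. Likeness was the root mean square difference between centred profiles on the log2 scale, which was 0.10 for Trub2 and 0.12 for Gcgr, against a median of 0.25 over 10908 genes. By the same measure each member was set against the mean of the other 8, which gave 0.09 for Mobp, 0.11 for Ugt8a, 0.12 for Cnp, 0.16 for Mal, 0.17 for Mag, 0.18 for Cldn11, 0.20 for Mbp and 0.23 for Olig1 and Mog. Nefh, the heavy subunit of the neurofilaments of large axons, was the nearest gene that spanned as much as the mean member profile (0.61 against 0.59), with centred values of -0.22 and -0.33 in Mt-KO lead and saline, 0.27 and 0.21 in heterozygous lead and saline, and 0.03 and 0.04 in wild-type lead and saline.

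The starts of the genes were read from RefSeq (GRCm38.p6), which gave windows from 250 bases before to 50 bases after the start for 7 of the 9 members (Mobp, Mog, Mag, Cnp, Cldn11, Ugt8a and Mal), 9 windows in all because Mag has 3 starts. Mobp is shown because it was the only tested member whose 3 genotypes did not overlap in the RMA values as deposited. The share of all genes that did so was not computed, so this served only to choose a window. Cldn11 and Ugt8a are shown because they had the largest differences between heterozygous and wild-type brains among the 8 members tested. Capitals mark ACAAAG or, on the other strand, CTTTGT, the core that transcription factors of the SOX family recognise, Sox10 among them. All windows run 5′ to 3′ along the strand of the gene.
Mobp (chr9:120149492-120149791, plus strand): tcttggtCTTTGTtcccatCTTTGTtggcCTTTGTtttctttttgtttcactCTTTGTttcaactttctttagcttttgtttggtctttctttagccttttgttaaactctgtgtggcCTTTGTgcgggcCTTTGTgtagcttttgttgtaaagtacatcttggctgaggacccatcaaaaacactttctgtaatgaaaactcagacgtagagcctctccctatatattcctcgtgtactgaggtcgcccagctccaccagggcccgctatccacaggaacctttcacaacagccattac
Cldn11 (chr3:31149670-31149969, plus strand): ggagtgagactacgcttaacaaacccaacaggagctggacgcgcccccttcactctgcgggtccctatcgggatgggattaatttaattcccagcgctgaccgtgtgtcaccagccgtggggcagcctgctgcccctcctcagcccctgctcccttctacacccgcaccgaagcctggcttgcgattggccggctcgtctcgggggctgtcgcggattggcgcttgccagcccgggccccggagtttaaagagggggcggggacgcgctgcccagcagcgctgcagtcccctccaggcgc
Ugt8a (chr3:125938603-125938902, minus strand): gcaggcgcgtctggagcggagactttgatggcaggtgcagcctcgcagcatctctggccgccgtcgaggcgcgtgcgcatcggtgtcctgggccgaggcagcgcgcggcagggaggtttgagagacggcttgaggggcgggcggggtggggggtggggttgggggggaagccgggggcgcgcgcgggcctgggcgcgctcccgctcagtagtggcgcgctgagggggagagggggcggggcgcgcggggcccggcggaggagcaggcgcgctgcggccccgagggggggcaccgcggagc

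The Mobp window held 6 matches to this core, all as CTTTGT, and was the only 1 of 32851 windows of that length with 6 or more. Cnp had 1 match and Mag 1, in a stretch that 2 of its 3 windows share, whereas Cldn11, Ugt8a, Mog and Mal had 0 in these windows. A match occurred in 18.7% of all windows. The E-box forms CAGCTG (16.3% of all windows) and CATCTG (17.2%), searched on both strands because factors such as Olig1 are of the class that recognises E-boxes, and TATAAA (13.6%) occurred in 0 of the 9 windows. The Cldn11 and Ugt8a windows were rich in G and C, at 66.3% and 78.3%, against 43.3% for Mobp and a median of 52.7% over all windows. A match in such a window is a description of its letters and does not show a binding site.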

How the data were processed

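Whole-brain RNA from 6 pools of 5 pups was hybridised to Affymetrix Mouse Genome arrays. The authors deposited 3 summaries of each array, which are RMA and GC-RMA values on a log2 scale and PLIER values as linear intensity, made with Partek per the submitters' processing notes (their versions: not given in the sources used here). These 3 summaries are no replicates. RMA values were used as deposited, and PLIER as log2(intensity + 16). Per the labels' protocols, RNA was labelled with a kit for whole-transcript arrays. The probe sets are those of an array that reads the 3' ends of transcripts, so the protocol text and the array do not match. This was not resolved. The number of arrays limits the precision.

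Of 45101 probe sets, 34958 had 1 symbol, 932 several and 9211 none. Each gene took its brightest probe set, and the upper 60% of genes by mean RMA value were fitted in limma (version 3.58.1, R 4.3.3; genotype plus treatment, and allele number by lead), with Benjamini-Hochberg adjustment over 10916 genes at 0.05. With 1 pool per combination, genotypes stand in as replicates of lead and treatments as replicates of genotype. Their interaction is thus the residual of the additive fit. In both fits of the 10916 genes the prior degrees of freedom were infinite. Each SE was therefore the value of the intensity trend at the gene's brightness, and the gene's own residual did not enter its p-value. The procedure was tested on simulated data with independent normal noise of the fitted size and no shift between arrays. That test therefore does not cover shifts of whole arrays such as those seen here. Members and lists were chosen with earlier results of these data known, and the Mt-KO minus heterozygous comparison was added after the members' values were seen. The named genes are the members, up to 4 genes per list by size of t for lead and for Mt-KO, Pdgfra, Olig2 and Sox10, and the 8 genes most like the members. Alternatives were the other summaries, quantile normalization, centring, no brightness filter, the mean over probe sets, no intensity trend and leaving out each array. Promoters came from RefSeq, since the files name no genome build.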

Additional observations from a re-analysis of the deposited data

How the results depend on the processing

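Calls over all genes were 13 for lead, 47 for Mt-KO, 13 for heterozygous, 17 for Mt-KO minus heterozygous and 412 for the interaction. In the same order they were 0, 0, 0, 0 and 0 with GC-RMA, 13, 68, 10, 26 and 142 with PLIER, 0, 1, 0, 0 and 1 after quantile normalization, 0, 7, 0, 4 and 20 after centring, 0, 6, 0, 0 and 92 without the brightness filter, 0, 2, 0, 0 and 409 with the mean over probe sets, and 0, 4, 0, 0 and 79 without the intensity trend. Leaving out arrays gave 1 to 2632 calls for lead, 8 to 4380 for Mt-KO, 3 to 2627 for heterozygous, 3 to 8 for Mt-KO minus heterozygous and 15 to 1029 for the interaction, where each fit had fewer arrays; the cause was not tested. Signs of member coefficients turned with GC-RMA for lead (Mal -0.00297, Olig1 -0.0192), heterozygous (Mal -0.0129) and interaction (Mbp 0.0993, Cnp 0.0659, Cldn11 0.0815), with PLIER for heterozygous (Mal -0.0745, Olig1 -0.0207), and after quantile normalization for Mt-KO (Olig1 0.0176) and interaction (Mbp 0.18, Cnp 0.16, Ugt8a 0.0750, Olig1 0.0150). The interaction also turned after centring (Mbp 0.0745, Cnp 0.12, Cldn11 0.0370, Ugt8a 0.11) and with the mean over probe sets (Mbp 0.0100, Cnp 0.10, Ugt8a 0.0784, Mal -0.0590). No sign turned for Mt-KO minus heterozygous under these 7 settings. Without single arrays or pairs the coefficients ranged for lead from -0.0297 to 0.28 (Mag), -0.0185 to 0.15 (Mobp) and -0.005 to 0.29 (Olig1), for Mt-KO from -0.22 to 0.33 (Mag), -0.31 to 0.15 (Cldn11) and -0.35 to 0.12 (Olig1), for heterozygous from -0.0371 to 0.51 (Mag), -0.0405 to 0.14 (Mal) and -0.17 to 0.31 (Olig1), for Mt-KO minus heterozygous from -0.37 to 0.0107 (Mag), -0.39 to 0.0105 (Olig1) and -0.91 to -0.30 (Cldn11), and for the interaction from -0.66 to 0.53 (Mbp), -0.31 to 0.62 (Mobp), -0.16 to 0.64 (Mag), -0.43 to 0.39 (Cnp), -0.97 to 0.77 (Cldn11), -0.72 to 0.66 (Ugt8a), -0.14 to 0.23 (Mal) and -0.51 to 0.14 (Olig1). Cldn11 in Mt-KO minus heterozygous was -0.91 with GC-RMA, -0.63 with PLIER, -0.62 after quantile normalization, -0.59 after centring and -0.60 under the other 3 settings, and did not pass. The lead comparison already pairs lead with saline pools by genotype, and the labels give no replicate numbers for another pairing.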
